A study of Mus musculus with 12 samples.

Results

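Srf, its Mkl cofactors and the ternary complex factors were followed in mouse neural progenitor cells (NPCs) in which the actin-Srf pathway had been disturbed from different sides. The members were every array probe whose RefSeq accession belonged to Srf, Mrtfa (the gene of Mkl1), Mrtfb (the gene of Mkl2), Myocd, Elk1, Elk3 or Elk4. This rule gave 17 probes of 7 genes, out of 55681 probes and 21154 named genes on the array. Srf, Mrtfa and Elk1 had 2 probes each, Mrtfb and Elk3 had 3 each, Elk4 had 4 and Myocd had 1.

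Srf (serum response factor) is a MADS-box transcription factor that binds the CArG box, an A/T-rich core between a pair of C and a pair of G. It works with cofactors of different families. The Mkl proteins are held back by monomeric actin, and their relative myocardin is largely restricted to cardiac and smooth muscle. Both drive cytoskeletal and contractile genes. The ternary complex factors Elk1, Elk3 and Elk4 are Ets-domain proteins phosphorylated by ERK, and they drive immediate-early genes. Srf is known as a target of its own pathway, so its transcript is known as an output of the pathway as well as the source of a component.

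NPCs had been derived in culture from mouse embryonic stem cells and were kept in medium with EGF and bFGF. The 12 one-color arrays formed 6 groups of 2. EGFP (control), Mkl1 and Srf cells had received a retroviral transgene of that name. shEGFP (control), shActb_1 and shActb_2 cells had received a retroviral hairpin against EGFP or 1 of the hairpins against Actb, the β-actin gene. According to the study's methods, the transgenes were open reading frames in a pMXs vector with puromycin resistance and the hairpins were driven by an H1 promoter. For molecular analyses the methods name the NPC lines NSEB5-2C or N31, the latter derived from the former and carrying doxycycline-dependent reprogramming factors, without saying which was put on the arrays. The study calls its Actb knockdown duplicates technical, and nothing says that the other duplicates came from separate cultures, so every p-value below measures differences against the spread between arrays.

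Levels are log2 signals relative to each array's 75th percentile of signal, which lay between 843 and 1150. Between 59.3% and 72.5% of probes were well above background on an array, none was saturated, and duplicates correlated at r = 0.993 to 0.998. Well above background on every array were 9 of 12 neural progenitor, 4 of 6 pluripotent, 4 of 6 neuron, 1 of 3 astrocyte, 3 of 3 oligodendrocyte, 4 of 6 smooth muscle and mesenchymal, 3 of 4 macrophage and 2 of 3 endothelial markers. Cdh5, an endothelial marker, was never above background. Summed levels of the smooth muscle and mesenchymal markers ran from 5.81 in shActb_2 to 6.65 in EGFP, those of the pluripotent markers from 0.59 in shActb_1 to 2.09 in Srf, those of the macrophage markers from 1.23 in shActb_1 to 2.54 in Srf, those of the oligodendrocyte markers from 3.50 in shEGFP to 4.50 in Srf, those of the neuron markers from 3.02 in Mkl1 to 3.77 in shEGFP, and those of the neural progenitor markers from 5.10 in EGFP to 5.70 in Mkl1. A sum gives most weight to the brightest genes. Of 9 neural progenitor markers tested with Mkl1, 1 rose and 3 fell (median change -0.11), where 20.8% of all probes were called. Of 10 tested with shActb_1, 0 rose and 3 fell (median -0.28), where 9.41% were called, although the sum was 5.29 against 5.13 in shEGFP. The part of such differences in the values below was not tested. EGFP, Mkl1 and Srf shared slide 1, shEGFP and shActb_1 shared slide 2, and shActb_2 lay alone on slide 3, so that for shActb_2 slide and hairpin cannot be told apart. In a bulk sample, fewer cells of a type and less RNA per cell cannot be told apart either.

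The first question was how the transcript read by the Srf probes responded. Its 2 probes (A_55_P2149540 and A_51_P100289, both NM_020493) were well above background on all 12 arrays. The promoter of Srf is shown because it carries the factor's own binding sequence. In the RefSeq window of 250 bases before to 50 bases after the annotated start (build GRCm38.p6, chr17:46556113-46556412, minus strand), capitals mark the CArG boxes.

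Srf promoter: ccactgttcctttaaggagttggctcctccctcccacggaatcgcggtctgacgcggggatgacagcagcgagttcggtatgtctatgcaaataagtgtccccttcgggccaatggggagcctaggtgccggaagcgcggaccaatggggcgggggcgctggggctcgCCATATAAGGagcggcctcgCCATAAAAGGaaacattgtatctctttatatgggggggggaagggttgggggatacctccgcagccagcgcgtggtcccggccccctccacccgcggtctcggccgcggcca

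The boxes lay at positions -82 to -73 and -62 to -53 from the start. A CArG box was present in 535 of 32851 mouse promoter windows (1.63%), read on both strands, and only 6 windows, that of Srf included, held 2 or more. The Srf window also held 1 match to CCGGAA, the core bound by Ets-domain proteins (14.9% of all windows, either strand), at -122 to -117, and 1 match to GGGCGG, the GC box (35.7% of all windows), at -103 to -98. These motifs did not overlap each other. The windows of Mrtfa (2), Mrtfb (3), Elk1 (1), Elk3 (1) and Elk4 (3) held no CArG box, and Myocd had no window. A match is a description of letters and not a measured binding site.

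Srf fell on the arrays labelled Srf and rose in the other 3 treatments, at both probes. At A_55_P2149540 the EGFP arrays read 2.45 and 2.87, the Mkl1 arrays 3.81 and 3.87, and the arrays labelled Srf 1.20 and 1.32. On the knockdown side the same probe read 3.27 and 3.23 in shEGFP, 3.89 and 3.80 in shActb_1, and 4.01 and 3.99 in shActb_2. Both arrays of each treated group thus lay outside the range of their own control, below it for Srf and above it for the others.

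At A_51_P100289 the levels were 2.64 and 2.78 in EGFP, 3.41 and 3.43 in Mkl1, and 0.24 and 0.26 on the arrays labelled Srf. They were 2.39 and 2.43 in shEGFP, 3.32 and 3.30 in shActb_1, and 3.37 and 3.39 in shActb_2. No treated group overlapped its control here either. From low to high, the group means at the first probe ran Srf, EGFP, shEGFP, Mkl1, shActb_1 and shActb_2, and the arrays of Mkl1 and shActb_1 overlapped. At the second probe they ran Srf, shEGFP, EGFP, shActb_1, shActb_2 and Mkl1. The order of EGFP and shEGFP differed between the probes, and those controls lay on different slides.

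**Figure D1:**
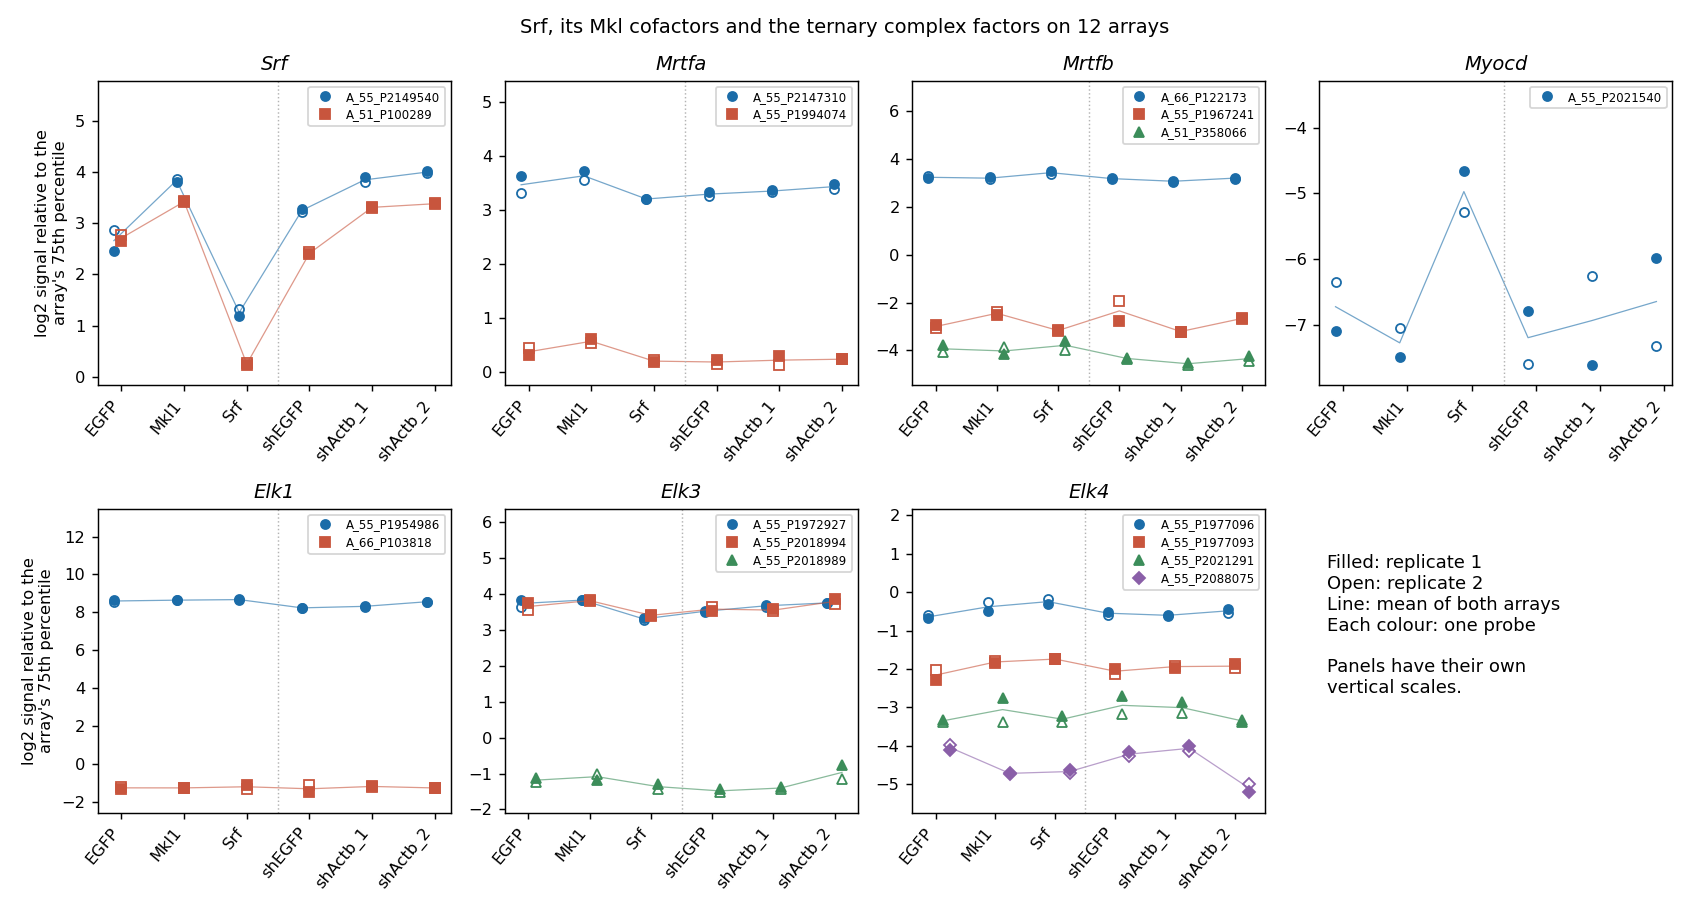
Log2 signal relative to the array's 75th percentile (vertical axis, own scale in each panel) for every probe of the 7 genes in the 6 groups (horizontal axis), with 1 point per array, filled for replicate 1 and open for replicate 2, and lines joining group means. Srf is lowest on the arrays labelled Srf, at 1.20 and 1.32 for one probe and 0.24 and 0.26 for the other, and the panels of Mrtfa, Elk1 and Elk3 stay within narrow bands.

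On the arrays labelled Srf the signal was 37.8% of EGFP at A_55_P2149540 (log2 change -1.40, SE 0.13, adjusted p = 0.000266, limma) and 18.2% at A_51_P100289 (-2.46, SE 0.06, adjusted p = 2.54e-06). Across all probes tested in this comparison, 25.5% were called at an adjusted p under 0.05, and the second probe ranked 206 by size of change among 35552. The direction is opposite to that of an overexpressed transcript. The transgene holds the coding sequence, and where the probes lie relative to it was not determined, so that these values describe the transcript the probes detect and the label was taken as given. The intervals of the 2 probes, -1.70 to -1.11 and -2.60 to -2.32, did not overlap, so the probes disagreed on the size of the fall. Both calls held in 13 of 13 alternatives, with changes from -1.61 to -1.19 and from -2.53 to -2.36.

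With Mkl1 the Srf signal rose 2.26-fold at A_55_P2149540 (log2 change 1.18, SE 0.13, adjusted p = 0.00121, limma) and 1.64-fold at A_51_P100289 (0.71, SE 0.06, adjusted p = 0.000522), where 20.8% of all probes were called. Both calls held in 12 of 13 alternatives. They were lost when the spread was taken from the 4 compared arrays alone (adjusted p = 0.0811 and 0.0837). The direct comparison of Srf with Mkl1, on the same slide, gave -2.58 (SE 0.13, adjusted p = 1.60e-05) and -3.17 (SE 0.06, adjusted p = 5.70e-07), with 25.6% of all probes called. Both treatments were set against the same EGFP arrays, and this direct contrast does not use those arrays except in the estimate of the spread.

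The hairpins were checked through Actb first. Its probe (A_55_P2112737) read 8.74 and 8.75 in shEGFP, 8.23 and 8.20 in shActb_1, and 8.12 and 8.06 in shActb_2. Actb thus fell to 69.1% of the control with shActb_1 (log2 change -0.53, SE 0.05, adjusted p = 0.00128, limma) and to 63.5% with shActb_2 (-0.65, SE 0.05, adjusted p = 0.000197). The actin genes are near copies, and the signal of this probe is uncertain to that extent. It read 8.86 and 8.89 in EGFP, 9.04 and 9.05 in Mkl1 and 8.98 and 8.99 in Srf, changes that did not pass the test (adjusted p = 0.0534 and 0.171).

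Srf rose with each hairpin. With shActb_1 the change was 0.60 (SE 0.13, adjusted p = 0.0268, limma) at A_55_P2149540 and 0.90 (SE 0.06, adjusted p = 0.000284) at A_51_P100289, that is 1.51-fold and 1.86-fold, where 9.41% of all probes were called. With shActb_2 the changes were 0.75 (SE 0.13, adjusted p = 0.00316) and 0.97 (SE 0.06, adjusted p = 8.67e-05), or 1.68-fold and 1.96-fold, with 40.3% of all probes called. Between the hairpins Srf differed by 0.15 (95% interval -0.14 to 0.45, adjusted p = 0.383) and 0.07 (-0.07 to 0.21, adjusted p = 0.404), where 32.1% of all probes were called, and a p above the threshold does not show that the hairpins act alike on it. The call of A_55_P2149540 with shActb_1 was the weak one. It was lost without shEGFP replicate 1 (0.62, adjusted p = 0.125), shEGFP replicate 2 (0.57, 0.123), shActb_1 replicate 1 (0.55, 0.153) or shActb_1 replicate 2 (0.64, 0.102), and without the filter on dim probes (0.60, 0.0678).

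**Figure D2:**
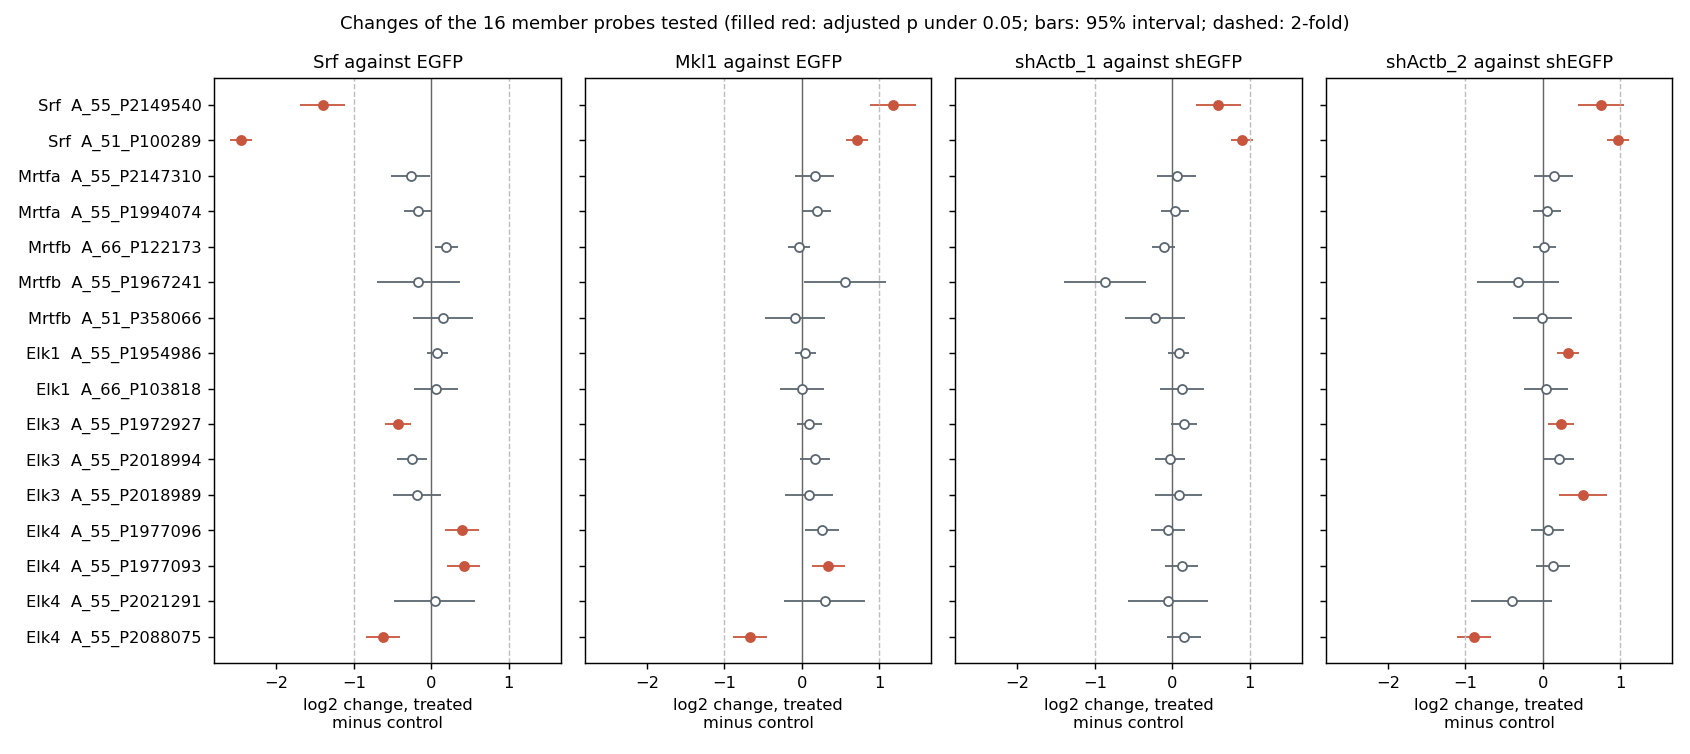
Log2 change against the control (horizontal axis) for the 16 member probes tested (vertical axis) in each treatment, with 95% intervals, filled red where the adjusted p was under 0.05 and with dashed lines at 2-fold. The Srf probes lie left of zero for Srf (-1.40 and -2.46) and right of it in the other 3 panels (0.60 to 1.18), while the other members stay inside the 2-fold lines.

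Changes of the cofactors and ternary complex factors were counted next. Of 56 changes of a tested non-Srf probe against its control, 10 were called and 0 exceeded 2-fold, and the changes ran from -0.89 to 0.55. Counted over all members, 6 of 16 tested probes were called with Srf (2 higher and 4 lower), 4 of 16 with Mkl1 (3 higher and 1 lower), 2 of 16 with shActb_1 (both higher) and 6 of 16 with shActb_2 (5 higher and 1 lower). These shares, 37.5%, 25%, 12.5% and 37.5%, lay near the 25.5%, 20.8%, 9.41% and 40.3% over all probes. When a fold change over 2 was required as well, 2 member probes were called with Srf, 1 with Mkl1, 0 with shActb_1 and 0 with shActb_2, all of them probes of Srf, against 5.54%, 2.78%, 1.61% and 6.31% of all probes. At the adjusted p alone, those last comparisons called 2 and 6 member probes.

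Mrtfa encodes Mkl1, the cofactor that leaves the cytoplasm when monomeric actin falls. At A_55_P2147310 (NM_001082536) it read 3.63 and 3.31 in EGFP, 3.72 and 3.56 in Mkl1, and 3.20 and 3.21 on the arrays labelled Srf. The Mkl1 arrays overlapped EGFP. At A_55_P1994074 (NM_001082536) the levels were 0.31 and 0.45 in EGFP, 0.61 and 0.54 in Mkl1, and 0.19 and 0.22 in Srf, with no overlap between these groups. The differences of Mkl1 from EGFP were 0.17 (95% interval -0.09 to 0.42, adjusted p = 0.312, limma) and 0.20 (0.01 to 0.38, adjusted p = 0.12), neither past the test. Leaving out 1 array moved the first from 0.0075 (without EGFP replicate 2) to 0.32 (without EGFP replicate 1, adjusted p = 0.0505) and the second from 0.13 to 0.26, with no call. The labelled overexpression was therefore not seen as a called rise at these probes, whose position relative to the transgene was not determined.

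On the arrays labelled Srf, the Mrtfa changes were -0.26 and -0.17 (adjusted p = 0.114 and 0.149, limma). Without EGFP replicate 2 the first was called (-0.42, adjusted p = 0.0124), and without EGFP replicate 1 it was -0.11 (adjusted p = 0.422). With the hairpins the 2 probes changed by 0.03 to 0.14, none called (adjusted p from 0.335 to 0.89). In the direct comparison both probes were lower with Srf than with Mkl1, by -0.43 (SE 0.11, adjusted p = 0.0234) and -0.37 (SE 0.08, adjusted p = 0.012). The first call was lost without any 1 of the 4 arrays (-0.51 to -0.35, adjusted p = 0.0513 to 0.132). The second was lost without Mkl1 replicate 1 (-0.33), Srf replicate 1 (-0.35) or Srf replicate 2 (-0.38).

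Mrtfb encodes Mkl2, the close relative of Mkl1. Its brightest probe, A_66_P122173 (NM_153588), read 3.21 and 3.28 in EGFP, 3.24 and 3.17 in Mkl1, 3.49 and 3.39 in Srf, 3.17 and 3.22 in shEGFP, 3.09 and 3.07 in shActb_1, and 3.19 and 3.23 in shActb_2. Both arrays labelled Srf lay above every other array at this probe. Its change was 0.19 (SE 0.06, adjusted p = 0.0601, limma), short of the call, and it was called without EGFP replicate 2 (0.23, adjusted p = 0.047), after normexp (0.21, 0.044) and after quantile normalization (0.23, 0.0309). Against Mkl1 directly it was higher by 0.23 (SE 0.06, adjusted p = 0.0331), a call lost without any 1 of the 4 arrays (0.18 to 0.28).

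The other probes of Mrtfb were dimmer. A_55_P1967241 (NM_181860) read -2.77 and -1.92 in shEGFP, the widest gap between duplicates of this probe, and -3.21 and -3.21 in shActb_1. Its change with shActb_1 was -0.86 (SE 0.23, adjusted p = 0.0572, limma), short of a call. It was -1.29 without shEGFP replicate 1 and -0.44 without shEGFP replicate 2. Leaving out either control array also took the gap between them out of the spread, so no call is read from those fits. With shActb_2 this probe changed by -0.32 with all arrays, by -0.74 without shEGFP replicate 1 and by 0.10 without shEGFP replicate 2. Between Srf and Mkl1 it differed by -0.72 (SE 0.23, adjusted p = 0.0543), opposite in sign to A_66_P122173, and was called in 4 of 13 alternatives. A_51_P358066 (NM_153588) changed by -0.22 to 0.15 against its controls and was called in no comparison.

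Myocd encodes myocardin, the cofactor of cardiac and smooth muscle. Its probe (A_55_P2021540, NM_145136) was well above background on 1 of 12 arrays, Srf replicate 1 (-4.67), with -5.28 on Srf replicate 2. The other 10 arrays read -7.60 to -5.98 and none of them was well above background. The probe was therefore not tested, and no fold is given, since no group was well above background on both of its arrays.

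Among the ternary complex factors, Elk1 is the classical ERK substrate. At A_55_P1954986 (NM_007922) it read 8.66 and 8.54 in EGFP, 8.65 and 8.65 in Mkl1, 8.65 and 8.70 in Srf, 8.23 and 8.25 in shEGFP, 8.30 and 8.34 in shActb_1, and 8.56 and 8.57 in shActb_2. Its mean signal in EGFP was 349110, near the 422350 of the Actb probe. The other Elk1 probe, on the same accession, had a mean signal of 378 there. Whether the bright probe reads Elk1 alone was not tested. At this bright probe the shActb_2 arrays stood above both other knockdown groups. The rise with shActb_2 was 0.32 (SE 0.06, adjusted p = 0.00453, limma), it was 0.04 and not called after quantile normalization (adjusted p = 0.663), and the other Elk1 probe, A_66_P103818, changed by 0.04 (adjusted p = 0.797). Over the 12 arrays that probe ran from -1.49 to -1.10, and it was called nowhere.

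Elk3 (Net) can repress as well as activate its targets. At A_55_P1972927 (NM_013508) it read 3.83 and 3.64 in EGFP, 3.83 and 3.83 in Mkl1, 3.34 and 3.28 in Srf, 3.51 and 3.53 in shEGFP, 3.70 and 3.64 in shActb_1, and 3.75 and 3.76 in shActb_2. The arrays labelled Srf were the lowest of all. Elk3 fell by 0.43 on the log2 scale there (SE 0.07, adjusted p = 0.00415, limma), and its other probes gave -0.25 (adjusted p = 0.0655) and -0.18 (adjusted p = 0.353), lower at all 3 probes. The call was lost with the compared arrays alone (adjusted p = 0.113), and A_55_P2018994 was called without EGFP replicate 2 (-0.34, adjusted p = 0.0224) and was -0.15 without EGFP replicate 1 (adjusted p = 0.23). Compared with Mkl1 directly, Elk3 was lower by -0.52 (SE 0.07, adjusted p = 0.00154) and -0.41 (SE 0.08, adjusted p = 0.00957) at the bright probes, the second lost without Mkl1 replicate 2 (-0.39) or Srf replicate 2 (-0.39).

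With shActb_2, Elk3 rose at A_55_P1972927 (0.23, SE 0.07, adjusted p = 0.0343, limma) and at the dimmer A_55_P2018989 (0.51, SE 0.13, adjusted p = 0.0179). The latter read -1.44 and -1.52 in shEGFP, -1.38 and -1.42 in shActb_1, and -0.77 and -1.16 in shActb_2, where the duplicates were farthest apart. Its call was lost without shEGFP replicate 1 (0.55), shEGFP replicate 2 (0.48) or shActb_2 replicate 1 (0.32). That of A_55_P1972927 was lost without any 1 of the 4 arrays (0.22 to 0.24), and after quantile normalization its change was 0.07. With shActb_1 the 3 probes changed by -0.03 to 0.15, none called.

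Elk4 (Sap1) gave probes that disagreed. A_55_P1977096 (NM_007923) read -0.68 and -0.60 in EGFP, -0.50 and -0.26 in Mkl1, and -0.31 and -0.18 in Srf, and A_55_P1977093 (NM_007923) read -2.28 and -2.04, -1.85 and -1.78, and -1.74 and -1.74 in the same order. Both treatments lay above the control at both probes. With Srf they rose by 0.40 (SE 0.09, adjusted p = 0.0192, limma) and 0.42 (SE 0.09, adjusted p = 0.0145). With Mkl1 the second rose by 0.34 (SE 0.09, adjusted p = 0.0367) and the first changed by 0.26 (adjusted p = 0.0888).

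A_55_P2088075, designed on a predicted Elk4 transcript (XM_006529131), moved the other way. It read -4.10 and -3.98 in EGFP, -4.71 and -4.73 in Mkl1, -4.63 and -4.71 in Srf, -4.16 and -4.28 in shEGFP, -4.00 and -4.13 in shActb_1, and -5.21 and -5.0 in shActb_2. This is a dim signal, and in shActb_2 only replicate 1 was flagged as well above background. It fell with Srf (-0.63, SE 0.09, adjusted p = 0.0027, limma), Mkl1 (-0.68, SE 0.09, adjusted p = 0.00317) and shActb_2 (-0.89, SE 0.09, adjusted p = 0.000526), and changed by 0.15 with shActb_1 (adjusted p = 0.425). After the normexp correction these falls shrank to -0.24, -0.22 and -0.37, and the call with Mkl1 was lost. Over all alternatives the call with Srf held in 9 of 12 (lost after quantile normalization, with the variance trend and with the compared arrays alone, adjusted p = 0.104, 0.0751 and 0.0567), that with Mkl1 in 8 of 12 and that with shActb_2 in 11 of 11. The fourth probe, A_55_P2021291 (NM_007923), changed by -0.40 to 0.29 and was called nowhere.

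The Elk4 calls at the 2 probes that rose depended on single arrays. With Srf, A_55_P1977096 lost its call without EGFP replicate 1 (0.36) or Srf replicate 2 (0.33), and A_55_P1977093 without Srf replicate 1 (0.42) or Srf replicate 2 (0.42). With Mkl1, A_55_P1977093 lost it without EGFP replicate 1 (0.22), Mkl1 replicate 1 (0.37) or Mkl1 replicate 2 (0.31), while A_55_P1977096 gained a call without Mkl1 replicate 1 (0.38).

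In the direct comparisons, 7 of 16 member probes differed between Srf and Mkl1 (1 higher and 6 lower with Srf) and 3 of 16 between the hairpins, beside the 25.6% and 32.1% of all probes given above. At over 2-fold as well, 2 were called in the first, the Srf probes, against 5.0% of all probes, and 1 in the second, against 5.03%. The latter was the dim Elk4 probe A_55_P2088075, lower with shActb_2 than with shActb_1 by -1.04 (SE 0.09, adjusted p = 0.0005, limma). After the normexp correction this difference was -0.54, under 2-fold. Only shActb_2 replicate 1 was well above background, so the size is uncertain, and with that array alone in its group it was -1.14 (adjusted p = 0.00332).

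Regulators upstream of the members were then counted, with 1 probe per gene. Of 18 genes that control actin and the Mkl branch (formins, LIM kinases, cofilins, profilin, thymosin and others), 2 rose and 3 fell with Srf, 8 rose and 1 fell with Mkl1, 1 rose and 0 fell with shActb_1, and 9 rose and 3 fell with shActb_2. Of 17 genes of the ERK branch (Ras, Raf, MEK, ERK and RSK kinases, Sprouty genes and Dusp6), 5 rose and 2 fell, 4 rose and 0 fell, 1 rose and 1 fell, and 9 rose and 0 fell in the same order. The shares of all probes called were 25.5%, 20.8%, 9.41% and 40.3%. They cover every tested probe, while these counts and those of the lists below use the brightest probe per gene. Among named genes with a promoter window, 17.3% rose and 16.6% fell with Srf, and 17.8% and 11.2% with Mkl1. The shares were 7.81% and 5.91% with shActb_1, and 28.6% and 16.1% with shActb_2. None of these regulators was called at over 2-fold in a comparison with a control. Their median changes were -0.02, 0.18, 0.07 and 0.17 for the actin branch and 0.10, 0.16, 0.08 and 0.30 for the ERK branch, beside -0.04, -0.03, 0.01 and -0.02 over all probes. These lists, like those below, were drawn up with earlier results of these data known, so their counts are a description.

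Proteins that bind or restrain Srf were counted in the same way. Of 13 such genes, 12 were well above background in both groups of each comparison with a control. Of these, 4 rose and 4 fell with Srf, 4 rose and 2 fell with Mkl1, 3 rose and 2 fell with shActb_1, and 5 rose and 2 fell with shActb_2. Their medians were -0.08, 0.08, 0.15 and 0.21 in the same order, and the shares of all probes called are those given for the members. Fhl2, a LIM-only protein that binds Srf and competes with Mkl1, rose with Mkl1 (log2 change 1.86, SE 0.06), shActb_1 (1.11, SE 0.06) and shActb_2 (1.38, SE 0.06), and fell with Srf (-0.75, SE 0.06). Hopx, a homeodomain-only protein known to inhibit Srf, followed the same directions, with 1.12, 0.56, 0.47 and -0.45. Csrp1, a LIM protein of smooth muscle, rose with Mkl1 (1.29), shActb_1 (1.02) and shActb_2 (0.95), and its change with Srf was -0.0068 (adjusted p = 0.944). Csrp2, its relative, fell with Srf (-1.32, SE 0.18), Mkl1 (-0.64) and shActb_1 (-0.81), and changed by -0.48 with shActb_2 (adjusted p = 0.0724). Nkx2-5, a cardiac partner of Srf, rose with Srf (3.63, SE 0.12), Mkl1 (2.55, SE 0.12) and shActb_2 (1.54, SE 0.12), and changed by 0.25 with shActb_1 (adjusted p = 0.282). The calls named here had adjusted p between 6.97e-06 and 0.0471 (limma). Fhl1 was not well above background on any control array and was tested only through the groups where it was high. It was at least 2.60-fold higher with Mkl1 than in EGFP (adjusted p = 0.0015, limma) and at least 1.59-fold higher with shActb_2 than in shEGFP (adjusted p = 0.0158), against the lowest signal counted as well above background.

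The known targets gave the output of each branch beside the behavior of Srf. Of 22 targets assigned to the Mkl branch, most but not all of them cytoskeletal, 17 rose and 0 fell with Mkl1. With shActb_1 17 rose and 2 fell, and with shActb_2 17 rose and 3 fell. The median changes were 0.76, 0.72 and 0.66. Actb, the target of the hairpins, is on this list and is 1 of the genes that fell with each of them. The shares of all probes called were 20.8%, 9.41% and 40.3%, and 25.5% with Srf. With Srf the median was 0.24, from 9 genes that rose and 1 that fell. Acta2, smooth muscle actin, rose by 6.93 with Mkl1 (SE 0.08, adjusted p = 2.91e-08, limma), 4.42 with shActb_1 (SE 0.08), 5.04 with shActb_2 (SE 0.08) and 3.37 with Srf (SE 0.08). Cnn1, calponin, rose by 6.56, 4.23, 4.76 and 1.14 in the same order. Myl9, a myosin light chain, rose by 3.60, 3.12 and 4.33, and its change with Srf was 0.26 (adjusted p = 0.0559). Tgfb1i1, a focal adhesion LIM protein, rose by 2.32, 1.71 and 1.30, and changed by 0.45 with Srf (adjusted p = 0.0591). Tagln2, a transgelin, rose by 1.42, 1.63, 1.09 and 0.59, and Tpm2, a tropomyosin, rose by 1.33, 0.84 and 1.1, and changed by -0.04 with Srf (adjusted p = 0.66). Other genes rose by over 2-fold with Srf as well. Actg2, a smooth muscle actin, rose by 5.41, 2.76, 5.29 and 4.60 in the order above, Acta1, skeletal muscle actin, by 4.74, 4.05, 4.16 and 1.1, and Tagln, transgelin of smooth muscle, by 2.32, 2.20, 2.53 and 2.34. Ccn2, a matricellular growth factor, rose with Srf (1.28, adjusted p = 5.43e-05), changed by -0.08 with Mkl1 (adjusted p = 0.521), and fell with shActb_1 (-0.43, adjusted p = 0.0158) and shActb_2 (-0.27, adjusted p = 0.0287). Directly compared, 14 of these 22 genes were lower with Srf than with Mkl1, with Cnn1 (-5.42), Acta1 (-3.64), Acta2 (-3.55) and Myl9 (-3.34) farthest apart. The 1 gene that was higher was Ccn2 (1.36, SE 0.08, adjusted p = 3.32e-05, limma), and Tagln differed by 0.03 (SE 0.22, adjusted p = 0.953).

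Of 14 listed immediate-early targets of the ternary complex factors, 12 were well above background in both groups of each comparison with a control. Of these, 7 rose and 1 fell with Srf, 5 rose and 1 fell with Mkl1, 0 rose and 1 fell with shActb_1, and 4 rose and 2 fell with shActb_2. The medians were 0.54, 0.29, 0.10 and 0.25, and the shares of all probes called were 25.5%, 20.8%, 9.41% and 40.3%. On the arrays labelled Srf the rises over 2-fold were Arc (log2 change 1.94, SE 0.20), Fos (1.88, SE 0.13) and Egr1 (1.08, SE 0.13), all with an adjusted p of 0.00108 or lower (limma). Egr4 was not well above background on either EGFP array, and with Srf it was at least 2.57-fold higher (adjusted p = 0.000645, limma). It is 1 of 2 genes of this list that were tested with Srf only through the Srf arrays, and both are left out of the count and median above. Arc also rose with Mkl1 (2.77, SE 0.20) and shActb_2 (1.27, SE 0.20), and changed by 0.51 with shActb_1 (adjusted p = 0.17). Egr1 fell with Mkl1 (-0.71, adjusted p = 0.0101) and changed by -0.23 and -0.37 with the hairpins (adjusted p = 0.383 and 0.0589). Fos fell with shActb_1 (-0.99, adjusted p = 0.00401) and changed by -0.20 with Mkl1 and 0.21 with shActb_2 (adjusted p = 0.306 and 0.239).

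**Figure D3:**
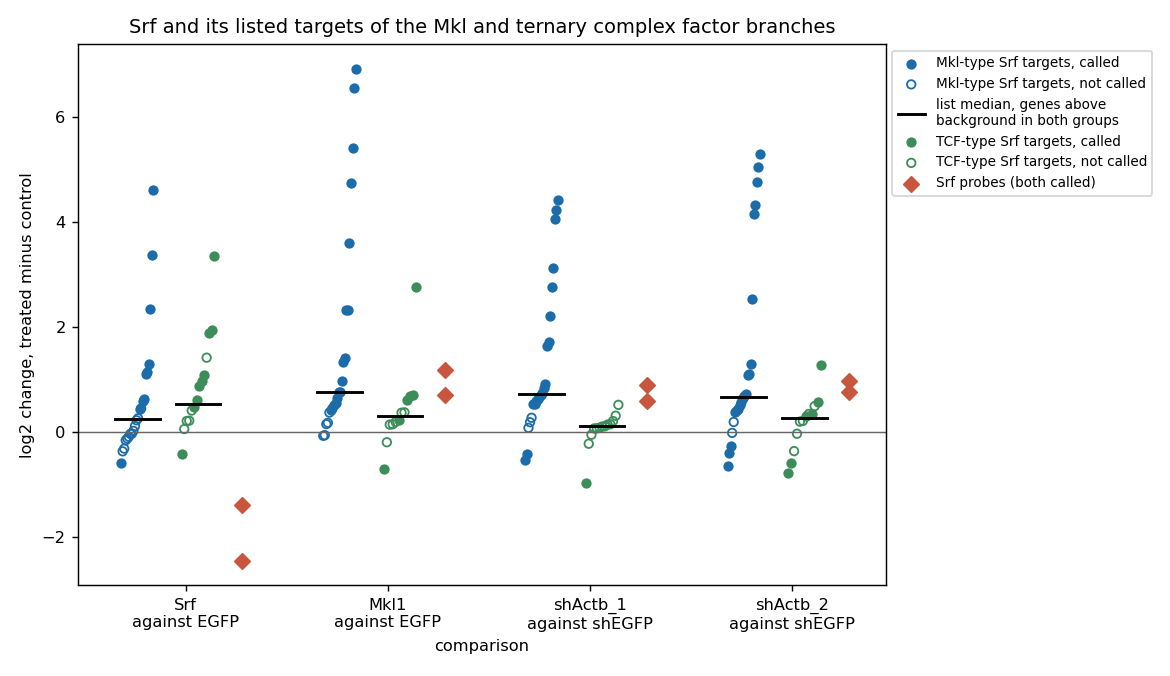
Log2 change against the control (vertical axis) in each treatment (horizontal axis) for the listed Mkl-type targets (blue), the ternary complex factor targets (green) and both Srf probes (red diamonds), with 1 point per gene, filled where the adjusted p was under 0.05, and a bar at each list's median over genes above background in both groups, Egr4 being plotted at its fitted value although its EGFP arrays were not above background. On the arrays labelled Srf the diamonds sit at -1.40 and -2.46 below list medians of 0.24 and 0.54, whereas in the other comparisons they sit on the same side of zero as the Mkl-type median.

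Genes with a pattern like that of a member were looked for over the 12 arrays among 13924 other genes, by Pearson's r of log2 levels. The points share controls and duplicates, so r is given as a description. For Srf (A_55_P2149540) the closest were B4galnt1 (r = 0.981), Mtmr9 (0.978), Myadm (0.978), Vcl (0.976) and Aunip (0.975). Vcl, vinculin of focal adhesions, is itself on the Mkl-type list. It read 3.54 and 3.90 in EGFP, 4.53 and 4.44 in Mkl1, 3.11 and 3.12 on the arrays labelled Srf, 3.86 and 4.00 in shEGFP, 4.55 and 4.50 in shActb_1, and 4.62 and 4.67 in shActb_2. It was the Mkl-type target that fell with Srf (-0.60, adjusted p = 0.00753, limma), and it rose with Mkl1 (0.76, adjusted p = 0.00416), shActb_1 (0.59, adjusted p = 0.0186) and shActb_2 (0.71, adjusted p = 0.00256).

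**Figure D4:**
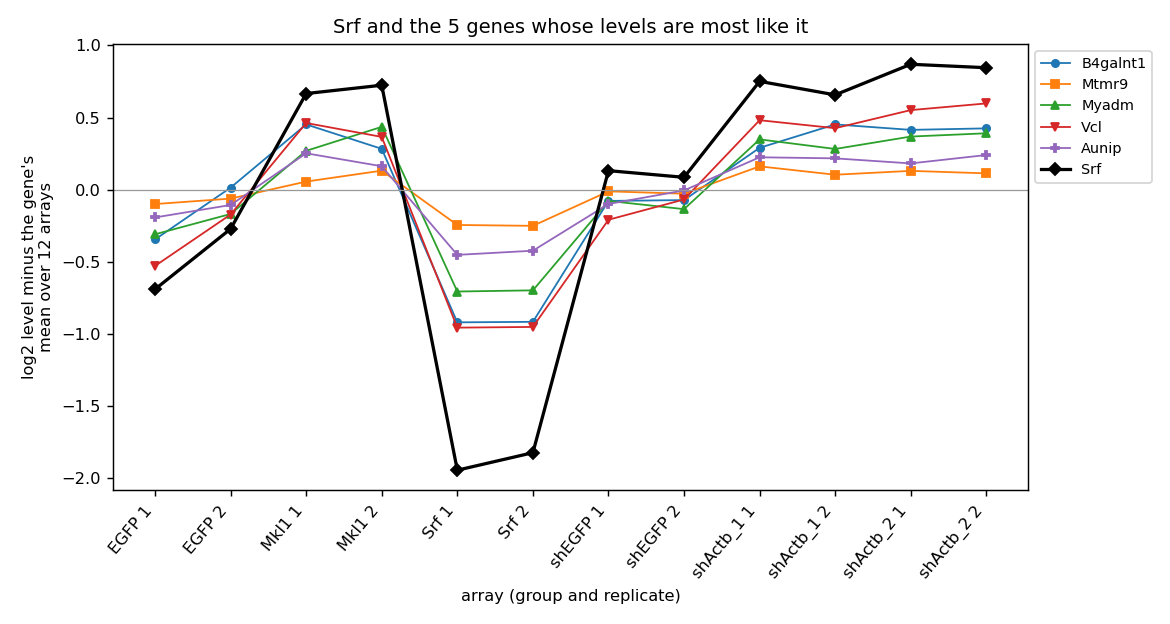
Log2 level minus the gene's own mean over 12 arrays (vertical axis) on each array (horizontal axis) for Srf (black) and the 5 genes most like it. All 6 are lowest on the 2 arrays labelled Srf and higher in Mkl1 and both Actb hairpin groups than in the matching controls, with the widest range for Srf, a likeness that follows from how the genes were chosen.

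Windows were found for 3 of these 5 genes, and those of Myadm (myeloid-associated differentiation marker, at -191 to -182) and Vcl (at -227 to -218) held a CArG box. They are shown with 15 bases on each side and the box in capitals, from chr7:3292778-3293077 and chr14:20929148-20929447, both on the plus strand.

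Myadm: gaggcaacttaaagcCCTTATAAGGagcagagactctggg
Vcl: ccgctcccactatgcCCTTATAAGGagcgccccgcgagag

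A CArG box was also found for 6 of 16 Mkl-type targets with a window (Acta1, Actg1, Cnn2, Lima1, Myl9 and Vcl), for 1 of 10 ternary complex factor targets (Egr2), for 3 of 9 Srf partners and inhibitors (Fhl1, Fhl2 and Hopx), and for 0 of 15 actin branch and 0 of 11 ERK branch regulators. Across all named genes with a window, those holding a box rose in 17.6% of cases with Srf against 17.3% of all, in 23.3% against 17.8% with Mkl1, in 14.2% against 7.81% with shActb_1 and in 34.5% against 28.6% with shActb_2. They fell in 17.1% against 16.6%, 5.94% against 11.2%, 4.13% against 5.91% and 14.5% against 16.1%. The genes with a box numbered 218 to 222. This count was made after the Srf values were seen, and the differences between the shares were not tested.

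The genes most like the other members were looked for in the same way. For Mrtfa (A_55_P2147310) they included Map7d1 (r = 0.95), C77080 (0.949), Serpinb6c (0.942) and Mettl18 (0.936). For Mrtfb (A_66_P122173) they were Ivd (0.958), Cdk16 (0.952), Mier3 (0.949), Prph (0.948) and Lor (0.945). For Elk3 (A_55_P1972927) they were Ppp1r13l (0.978), Acsl4 (0.965), Mgarp (0.965), Rgs17 (0.962) and Exoc1 (0.962). All 5 genes most like Elk3 read lower on the arrays labelled Srf than in EGFP, by -1.09 (Mgarp) to -0.31 (Exoc1), and the 5 most like Mrtfb read higher there, by 0.36 (Ivd) to 2.67 (Lor), which follows from how they were chosen.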

How the data were processed

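Total RNA of 12 samples was labelled with Cy3 and hybridized to one-color Agilent mouse arrays. The authors deposited the scanner intensity of every spot, quantified with Feature Extraction 11.5.1.1 (background-subtracted processed signal), and a table of log2 values. The deposited log2 table equalled the processed signal shifted by 1 constant per array, within 0.01 for 100% of probes. The labels name another array format than the number of spots shows.

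Here, spots of a probe were averaged, and log2 processed signals were centred on each array's percentile 75. Probes were named through their RefSeq accession (GRCm38.p6 table), which gave 28026 of 55681 probes (50.3%) a gene. Groups came from the sample labels. limma 3.58.1 in R 4.3.3 (lmFit and eBayes) was fitted to all 12 arrays with 1 mean per group and no block, two-sided. A probe was tested where both arrays of 1 or more of the compared groups read it well above background, and calls were made at a Benjamini-Hochberg adjusted p under 0.05 over all of them, with a stricter rule of over 2-fold as well. The fit was tested on simulated data. Gene lists used the probe of highest mean signal. The number of arrays, 2 per group, limits the precision.

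Named were all member probes, target and partner genes called at over 2-fold against a control (with their values in the other comparisons), Actb, and the 5 genes most like a member, of which 1 is not reported here. Members and lists were chosen with earlier results of these data known. Alternatives were the authors' log2 table, normexp background correction (offset 50, on the spot median signal), quantile normalization, other filters on dim probes, the compared arrays alone, a replicate block, a slide block, a variance trend and leaving out each array. Promoter windows (300 bases) were read from RefSeq. Tables and figures were made with Python 3.11.15, pandas 2.3.3, numpy 2.4.6 and matplotlib 3.10.9.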

Additional observations from a re-analysis of the deposited data

Results flagged for a closer look

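The members whose response differed between the hairpins, by the direct test of shActb_2 against shActb_1, were Elk1, Elk3 and Elk4, with 1 probe each. They were 3 of 16 member probes tested (18.75%), under the 32.1% called among all probes. No other probe of these genes was called in this comparison. Elk1 (A_55_P1954986, the probe with a signal near that of Actb) was higher with shActb_2 by 0.24 on the log2 scale (adjusted p = 0.0181, limma). The call was lost without any 1 of the 4 arrays (0.22 to 0.27, adjusted p = 0.0606 to 0.115), and after quantile normalization the difference was 0.03. Elk3 (A_55_P2018989) was higher by 0.43 (adjusted p = 0.0401), a call lost without shActb_1 replicate 1 (0.45), shActb_1 replicate 2 (0.41) or shActb_2 replicate 1 (0.24). Elk4 (A_55_P2088075, a dim probe on a predicted transcript) was lower by -1.04 (adjusted p = 0.0005) and was called in 11 of 11 alternatives, with values from -1.14 to -0.54, the smallest, under 2-fold, after normexp. Only shActb_2 replicate 1 was well above background, so the size is uncertain, and with that array alone in its group the difference was -1.14 (adjusted p = 0.00332). Both arrays of shActb_2 lay on a slide of their own, so that for these differences slide and hairpin cannot be told apart.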

How the results depend on the processing

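For the 28 member changes that were called, 284 of 351 alternative values kept the call, 67 lost it and 0 reversed, and 10 changes kept it under every alternative run. For the 68 that were not called, 785 of 859 values stayed so, 27 became calls and 47 changed sign, the largest of these 0.18 in size. The count of member probes called was 2 with Srf and 0 with Mkl1 when only the compared arrays were fitted (limma, 6 and 4 at an unadjusted p under 0.05). Without the filter on dim probes it was 1 with shActb_1 and 1 between the hairpins. The shares of all probes called in these settings, or after leaving out 1 array, are not given here. These counts therefore cannot be set against the whole array. At over 2-fold as well the count was 2 with Srf, 1 with Mkl1, 0 with shActb_1, 0 with shActb_2, 2 for Srf against Mkl1 and 1 between the hairpins. The shares of all probes were 5.54%, 2.78%, 1.61%, 6.31%, 5.0% and 5.03%. Leaving out 1 array gave 1 to 2 with shActb_1, 3 to 4 for Srf against Mkl1 and 1 to 2 between the hairpins. Signs turned after normexp for Elk4 A_55_P2021291 with Srf (-0.011), Elk1 A_66_P103818 with Mkl1 (0.0049), Mrtfa A_55_P1994074 with shActb_1 (-0.066), Mrtfb A_51_P358066 with shActb_2 (0.015), Elk4 A_55_P2088075 for Srf against Mkl1 (-0.018) and Elk4 A_55_P1977093 between the hairpins (-0.0059). They turned after quantile normalization with Mkl1 for Mrtfb A_51_P358066 (0.17), Elk1 A_55_P1954986 (-0.040) and Elk1 A_66_P103818 (0.053), with shActb_1 for Mrtfa A_55_P2147310 (-0.032) and Elk4 A_55_P2021291 (0.0047), with shActb_2 for Mrtfa A_55_P2147310 (-0.010), Mrtfb A_66_P122173 (-0.13) and Mrtfb A_51_P358066 (0.18), and for Srf against Mkl1 for Elk1 A_66_P103818 (-0.027) and Elk4 A_55_P1977093 (-0.069). With the deposited log2 table Elk1 A_66_P103818 turned with Mkl1 (0.00093). Leaving out 1 array turned, with Srf, Mrtfb A_51_P358066 (-0.044 to 0.34), Elk1 A_66_P103818 (-0.037 to 0.15) and Elk4 A_55_P2021291 (-0.036 to 0.12). With Mkl1 it turned Mrtfb A_66_P122173 (-0.076 to 0.0013), Mrtfb A_51_P358066 (-0.24 to 0.062), Elk1 A_55_P1954986 (-0.013 to 0.10), Elk1 A_66_P103818 (-0.063 to 0.058) and Elk4 A_55_P2021291 (-0.018 to 0.61). With shActb_1 it turned Mrtfa A_55_P1994074 (-0.048 to 0.12), Elk1 A_66_P103818 (-0.060 to 0.31), Elk3 A_55_P2018994 (-0.080 to 0.024) and Elk4 A_55_P2021291 (-0.29 to 0.17). With shActb_2 it turned Mrtfb A_66_P122173 (-0.0055 to 0.047), Mrtfb A_55_P1967241 (-0.74 to 0.10), Mrtfb A_51_P358066 (-0.11 to 0.096) and Elk1 A_66_P103818 (-0.14 to 0.23). It turned Elk1 A_66_P103818 (-0.035 to 0.15) and Elk4 A_55_P2021291 (-0.56 to 0.061) for Srf against Mkl1, and Mrtfa A_55_P1994074 (-0.064 to 0.10) and Elk4 A_55_P1977093 (-0.041 to 0.064) between the hairpins. The cause was not tested. Group levels moved beyond the spread of duplicates for 70 of 102 after normexp, 37 after quantile normalization and 5 with the deposited table. With a replicate block the counts of member calls were 6, 4, 2, 6, 7 and 3, as without it. All probes called were then 9361 of 35552, 7679 of 35765, 3456 of 36238, 14844 of 36173, 9266 of 35717 and 11700 of 35426. Same-numbered arrays deviated together with r = -0.0023 to 0.26 over 2 pairs. No label ties a number to a shared source, so the numbers were not taken to pair the arrays. A slide block changes nothing within a slide and could not be fitted for shActb_2.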
